A study of Mus musculus with 30 samples.

Results

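The comparison set non-tumor colon of wild-type (WT) mice after AOM-DSS against colon of untreated WT mice. It used 6 of the 30 libraries of the series, 3 in each of 2 of the 10 groups, chosen by their labels alone. All mice were male, house-bred C57BL/6, aged 8 to 12 weeks, and colon RNA was taken at day 56. WT AOM-DSS mice received 12.5 mg/kg azoxymethane by intraperitoneal injection and then 3 cycles of 4% dextran sulfate sodium for 5 days each, beginning on days 5, 26 and 47. Their samples are labelled as colitis without tumor. The untreated controls carried neither agent and no altered allele, and neither group drank spermidine. The design gives 3 mice per group, so a library is taken as 1 mouse. The labels do not say which stretch of the colon was taken or whether its muscle wall was removed.

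Azoxymethane is a colon carcinogen that alkylates DNA, and dextran sulfate sodium in the drinking water injures the colon epithelium and brings on cycles of colitis and repair. Together they are a widely used mouse model of colitis-associated cancer, and tissue beside the tumors is used to study injury and repair apart from the tumor itself. The colon epithelium is a sheet of absorptive colonocytes and mucus-making goblet cells over a layered muscle wall with its own neurons. The set of genes it uses shifts from its proximal to its distal end, with Hox genes and transport and detoxification enzymes among the markers of place.

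The 6 libraries held 67255670 to 72268614 counts in untreated colon and 52484764 to 60127900 counts after AOM-DSS. The colon markers Car1, Slc26a3, Muc2, Cdx2, Epcam and Krt20 were present in all 6 libraries, with the lowest value 35.8 CPM (Cdx2). Expression is given in CPM, a gene's counts relative to the scaled total of the library. The adjusted p-values come from an edgeR fit that estimates the spread within the 10 groups over all 30 libraries, of which the labels say no more than the number of mice. WT untreated replicate 3 stood apart. On the log2 CPM scale the mean level of skeletal muscle genes there was 9.01, against -1.54 and -1.29 in the other untreated libraries and -2.92 to -1.48 after AOM-DSS. Transcripts of the mitochondrial genome took 21.7% of its counts, against 6.95 and 8.42% in replicates 2 and 1 and 3.65 to 5.55% after AOM-DSS. Most changes of named genes and lists below are therefore also given without it. Of the 619 genes on the 43 lists used below, 81 were called with all libraries and 0 without it by edgeR, where 138 had an unadjusted p under 0.05, so no count of list genes that rose or fell held without that library.

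With all libraries, 345 genes rose and 915 fell of 19558 tested, which is 6.44% of genes called in either direction at an adjusted p under 0.05 (1.76% higher and 4.68% lower). Without WT untreated replicate 3, 2 genes rose and 7 fell of 19910 tested (0.0452%, with 0.01% higher and 0.0352% lower), and all 9 were among the 1260. When Smox AOM-DSS spermidine non-tumor replicate 1, a library outside the comparison, was left out with it, 28 rose and 29 fell (0.287%, with 0.141% higher and 0.146% lower), and 53 of these were among the 1260. In that library Wnt target genes had a mean log2 CPM of 5.95, against 1.42 to 4.19 in the other 23 libraries not labelled tumor and 4.23 to 7.27 in the 6 tumors. The level of 4.19 was that of WT AOM-DSS non-tumor replicate 1, inside the comparison and just below the lowest tumor. Whether that library held tumor tissue was not tested. The direction was the same without untreated replicate 3 for 1253 of the 1260, and 1071 of them had an unadjusted p under 0.05 without it, 345 of the 345 rises and 726 of the 915 falls. Of all 19910 genes in that fit, 2931 had an unadjusted p under 0.05. Both fits share every other library, so much of the agreement follows from how the 1260 were chosen. Replicate 3 was the highest untreated library for 853 of the 915 genes that fell and the lowest for 230 of the 345 that rose. The groups did not overlap for 1170 of the 1260 called genes, where 21.5% of all genes tested had groups that did not overlap. In 7.98% of all genes tested the AOM-DSS libraries lay above without overlap, and in 13.5% below. These shares, with 1.76% called higher and 4.68% called lower, are the background for the lists below. The lists and their members were chosen with earlier results of these data known. An excess over these shares is therefore a description and no independent support. The median log2 change of all genes tested was 0.00, and 0.04 without replicate 3.

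The number of calls also turned on other libraries. Without WT AOM-DSS non-tumor replicate 2, 10 genes rose and 6 fell, without AOM-DSS replicate 3 242 rose and 239 fell, and without untreated replicate 2 624 rose and 1317 fell. A fit of only the 6 libraries, which estimates the spread from them alone, called 0 genes with edgeR, with 2717 genes at an unadjusted p under 0.05 and a lowest adjusted p of 0.11. DESeq2 over all 30 libraries called 897 rises and 1863 falls. Of the 90 genes named here as risen or fallen, 9 kept the call without untreated replicate 3 (Pcdh17, Bend7, Mnx1, Agps, Plcd3, Otor, Ppp1r1a, Slc4a4 and Add3), 8 without AOM-DSS replicate 2 (Agps, Aqp4, Bend7, Khdc1a, Pcdh17, Pla2g2a, Plcd3 and Ppp1r1a), and all kept their direction in both.

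**Figure D1:**
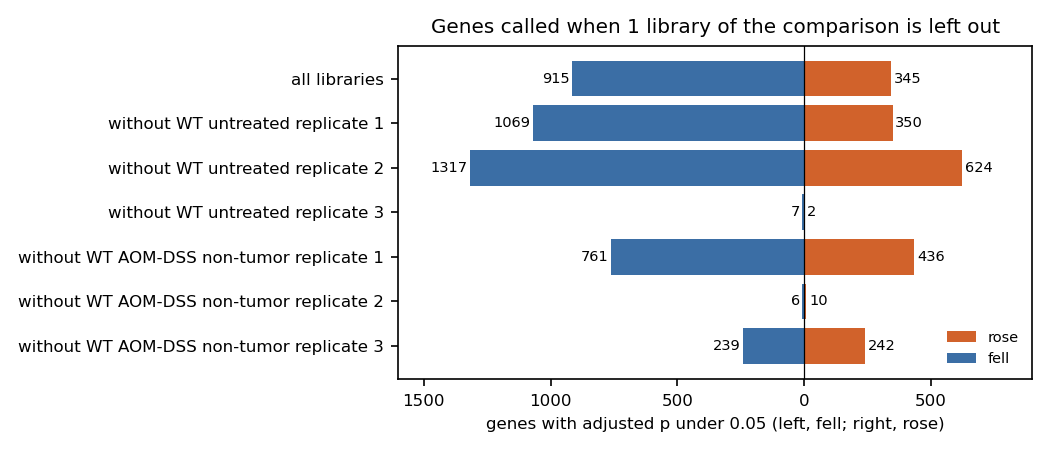
Number of genes with an adjusted p under 0.05 that rose (right) or fell (left) in WT non-tumor colon after AOM-DSS, with all libraries and with 1 library of the comparison left out. The bars nearly vanish without WT untreated replicate 3 (2 rose, 7 fell) and without WT AOM-DSS non-tumor replicate 2 (10 rose, 6 fell).

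A set of 5 genes was called with all libraries and with each of the 6 libraries left out in turn: Pcdh17, Bend7, Ppp1r1a, Agps and Plcd3. Pcdh17 (ENSMUSG00000035566.7, GRCm38 chr14:84443563-84539002), a protocadherin that mediates adhesion between cells and is best known from neurons, stood at 42.5, 42.6 and 10.4 CPM in untreated replicates 1 to 3 and at 1.26, 0.994 and 2.11 CPM after AOM-DSS. Its lowest untreated library was replicate 3, still above every AOM-DSS library (log2 change -4.45 ± 0.67 SE, adjusted p = 0.00444; -4.81 without replicate 3, adjusted p = 0.00356). Bend7 (GRCm38 chr2:4717831-4802142), which encodes a protein with a BEN domain, fell from 5.11, 5.12 and 6.27 CPM to 0.506, 0.419 and 0.489 CPM. Its libraries were close within both groups, and replicate 3 was the highest of the untreated (log2 change -3.54 ± 0.50 SE, adjusted p = 0.00444; -3.38 without replicate 3, adjusted p = 0.0149).

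The other 3 of these genes encode enzymes or enzyme regulators. Agps (GRCm38 chr2:75832177-75931350), a peroxisomal enzyme of ether lipid synthesis, rose from 56.9, 56.7 and 35.04 CPM to 145, 131 and 86.3 CPM (log2 change 1.29 ± 0.21 SE, adjusted p = 0.01; 1.14 without replicate 3, adjusted p = 0.0458). Plcd3 (GRCm38 chr11:103070304-103101658), a phospholipase C that cleaves membrane phosphoinositides, rose from 4.63, 4.56 and 5.02 CPM to 25.7, 27.4 and 13.6 CPM (log2 change 2.23 ± 0.33 SE, adjusted p = 0.00444; 2.32 without replicate 3, adjusted p = 0.0184). The AOM-DSS libraries of both genes lay above all untreated ones, with replicate 3 the lowest of the treated. Ppp1r1a, an inhibitor of protein phosphatase, was low in all libraries and fell from 1.46, 1.12 and 2.31 CPM to 0.122, 0.0872 and 0.113 CPM (log2 change -3.90 ± 0.58 SE, adjusted p = 0.00444; -3.51 without replicate 3, adjusted p = 0.0184).

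Mnx1, a homeobox transcription factor, fell from 8.93, 4.76 and 1.31 CPM to 1.12, 0.454 and 0.790 CPM (log2 change -2.67 ± 0.54 SE, adjusted p = 0.0145; -3.07 without replicate 3, adjusted p = 0.0149). Its untreated libraries spread widely, with replicate 3 the nearest to the AOM-DSS libraries. The remaining genes called without replicate 3 were Slc4a4, Add3 and Otor, which like Ppp1r1a miss the rule for named genes (a mean of 2 CPM in the higher group and groups that do not overlap) and were chosen after their values were seen. Slc4a4, a sodium bicarbonate cotransporter of the basolateral membrane, had 285, 436 and 61.1 CPM untreated and 57.8, 72.7 and 107 CPM after AOM-DSS, so that replicate 3 alone overlapped the treated libraries (log2 change -1.72 ± 0.45 SE, adjusted p = 0.0319; -2.12 without replicate 3, adjusted p = 0.0184). Add3, an adducin of the membrane skeleton, showed the same order at 196, 265 and 86.0 CPM against 112, 70.6 and 107 CPM (log2 change -0.91 ± 0.27 SE, adjusted p = 0.0443; -1.20 without replicate 3, adjusted p = 0.0266). Otor stood at 1.26, 1.51 and 2.87 CPM against 0.0175, 0.0174 and 0.0564 CPM (log2 change -5.87 ± 0.92 SE, adjusted p = 0.011; -5.37 without replicate 3, adjusted p = 0.0458), and its counts after AOM-DSS sum to 5.

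The 12 largest rises that met the rule for named genes were those of Chil3, Mmp7, Khdc1a, S100a9, Il5ra, S100a8, Prss22, Ccn3, Btn1a1, Pdx1, Tnfrsf8 and Aqp4. Pla2g2a, with a log2 change of 6.38, is annotated as a polymorphic pseudogene, a class that the ranking leaves out. Khdc1a had 0.0879, 0.416 and 0.135 CPM in untreated colon and 31.5, 48.9 and 29.3 CPM after AOM-DSS (log2 change 7.38 ± 1.21 SE, adjusted p = 0.01; 7.21 without untreated replicate 3). Il5ra, the receptor subunit for interleukin-5 on eosinophils and some B cells, went from 0.0146, 0.0555 and 0.0192 CPM to 2.16, 3.54 and 3.01 CPM (log2 change 6.47 ± 1.25 SE, adjusted p = 0.0128; 6.33 without untreated replicate 3). Tnfrsf8, the lymphocyte receptor CD30, went from 1.55, 5.22 and 0.173 CPM to 41.2, 53.1 and 46.6 CPM (log2 change 4.33 ± 0.86 SE, adjusted p = 0.0145; 3.85 without untreated replicate 3). For Khdc1a, Il5ra and Tnfrsf8 the AOM-DSS libraries were close together and the groups lay far apart.

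Aqp4, a water channel of basolateral membranes, was the most abundant of these genes and rose from 38.6, 46.0 and 25.0 CPM to 349.6, 809 and 810.3 CPM (17.9-fold; log2 change 4.17 ± 0.71 SE, adjusted p = 0.011; 4.02 without untreated replicate 3). Ccn3, a secreted matrix-associated protein, rose from 3.02, 2.22 and 6.06 CPM to 43.2, 184 and 144 CPM (log2 change 5.04 ± 1.37 SE, adjusted p = 0.0347; 5.62 without untreated replicate 3). Pdx1, the homeobox factor of pancreas and duodenum, rose from 0.0293, 0.0139 and 0.212 CPM to 0.820, 4.55 and 1.71 CPM (log2 change 4.84 ± 1.07 SE, adjusted p = 0.018; 6.70 without untreated replicate 3). For Aqp4, Ccn3 and Pdx1 AOM-DSS replicate 1 was the lowest of the treated libraries. The serine protease gene Prss22 (log2 change 5.58 ± 1.60 SE, adjusted p = 0.0421, and 6.31 without untreated replicate 3) and the butyrophilin gene Btn1a1 (5.02 ± 1.12 SE, adjusted p = 0.018, and 5.69 without untreated replicate 3) also rose, with their highest value in AOM-DSS replicate 2.

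**Figure D2:**
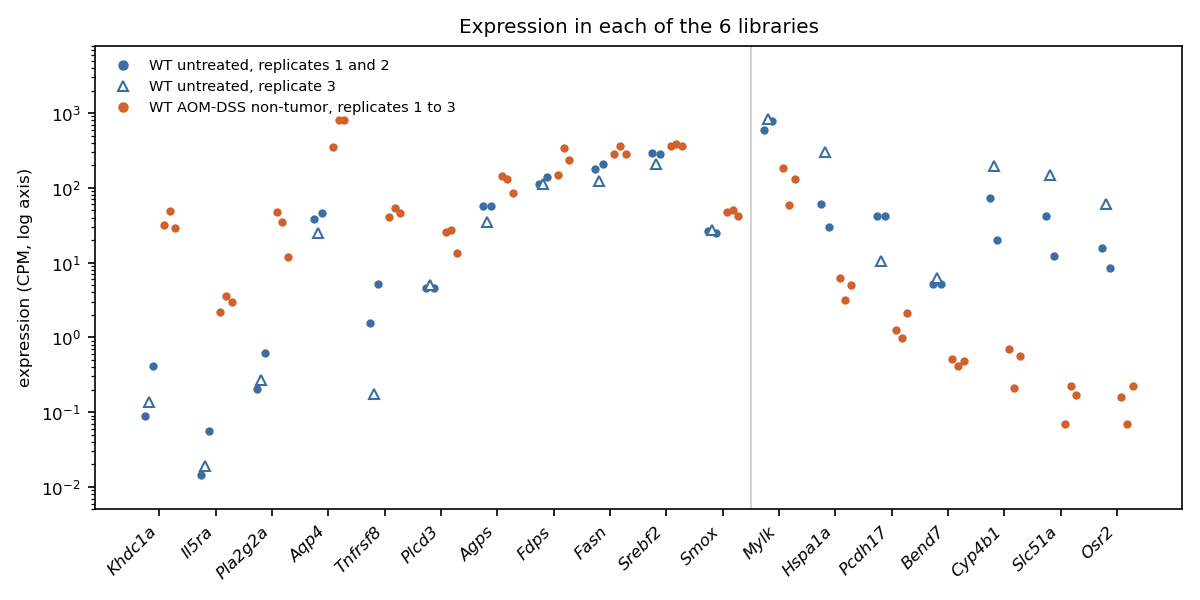
Expression (CPM, log axis) of 18 genes in each of the 6 libraries, with 11 that rose on the left of the line and 7 that fell on the right. Points are single libraries in replicate order, blue for WT untreated (open triangle, replicate 3) and orange for WT AOM-DSS non-tumor; the groups do not overlap for any gene shown, and the triangle lies well above the other untreated points for Hspa1a, Cyp4b1, Slc51a and Osr2.

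Some genes of sterol and fatty acid synthesis rose by small steps. Of 22 genes tested in this list 5 rose and 0 fell (background 1.76% higher), 20 had a positive log2 change and the median log2 change was 0.55 (0.65 without replicate 3), against 0.00 over all genes. Fdps, the farnesyl diphosphate synthase of the mevalonate pathway, had 111, 138 and 113 CPM untreated and 150.03, 338 and 233 CPM after AOM-DSS (log2 change 0.99 ± 0.23 SE, adjusted p = 0.0199; 1.004 without untreated replicate 3). Sqle, squalene epoxidase, had 113, 161 and 100.1 CPM and 144, 248 and 263 CPM (log2 change 0.81 ± 0.23 SE, adjusted p = 0.0425; 0.73 without untreated replicate 3). In both genes AOM-DSS replicate 1 lay nearest to the untreated libraries, and for Sqle it lay among them.

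Srebf2, the transcription factor that drives sterol synthesis genes, had 289, 284 and 210.4 CPM untreated and 361, 382 and 359 CPM after AOM-DSS (log2 change 0.49 ± 0.11 SE, adjusted p = 0.0192; 0.41 without untreated replicate 3). Fasn, fatty acid synthase, had 177, 209.6 and 123 CPM and 280.01, 366 and 282 CPM (log2 change 0.87 ± 0.20 SE, adjusted p = 0.0219; 0.73 without untreated replicate 3). Acaca, the acetyl-CoA carboxylase that feeds it, had 63.7, 84.7 and 43.5 CPM and 94.6, 114 and 87.0 CPM (log2 change 0.62 ± 0.17 SE, adjusted p = 0.0393; 0.46 without untreated replicate 3). The groups did not overlap for these 3 genes, and untreated replicate 3 was the lowest library in each. A further 3 genes of the same routes that were not on the list rose too and were chosen after their values were seen: Mvk (log2 change 0.70, adjusted p = 0.0258, and 0.61 without replicate 3) and Mvd (0.93, adjusted p = 0.0317, and 1.07 without replicate 3) of the mevalonate pathway and Acat2 (0.80, adjusted p = 0.041, and 0.64 without replicate 3), which joins acetyl-CoA units. AOM-DSS replicate 1 lay within the untreated range for Mvk and Mvd.

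The stretch before the start of Srebf2 is shown because the gene rose with the others and its own product binds sterol response elements. It is RefSeq's 170 bases upstream of the start, GRCm38.p6 chr15:82147099-82147268 on the + strand, with TCACNCCA, a core of that element searched on both strands, in capitals.
Srebf2: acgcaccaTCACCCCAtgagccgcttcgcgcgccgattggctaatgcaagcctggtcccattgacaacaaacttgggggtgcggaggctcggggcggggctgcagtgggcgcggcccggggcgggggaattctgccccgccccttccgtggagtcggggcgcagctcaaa
TCACNCCA begins 162 bases before the Srebf2 start and is found in the upstream 250 bases of 3.67% of 32851 RefSeq promoters. Of the 5 called genes of the list, 3 had a promoter entry (Srebf2, Fasn and Acaca) and only Srebf2 held these letters.

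The heat shock genes Hspa1a and Hspa1b, near-identical neighbours on chromosome 17 that encode inducible HSP70 chaperones, were lower after AOM-DSS. Hspa1a had 61.4, 30.2 and 302 CPM in untreated colon and 6.14, 3.12 and 5.02 CPM after AOM-DSS (log2 change -4.78 ± 0.84 SE, adjusted p = 0.0112; -3.21 without untreated replicate 3). Hspa1b had 101, 62.1 and 468 CPM and 22.6, 12.2 and 18.2 CPM (log2 change -3.57 ± 0.68 SE, adjusted p = 0.0122; -2.15 without untreated replicate 3). Both were highest in untreated replicate 3, and the other untreated libraries still lay above every treated one. Reads of such copies can be split between them by the authors' counting, so the values of the pair are uncertain one by one. Of 16 immediate early and stress genes these 2 fell and 0 rose, with a median log2 change of -0.55 (-0.27 without replicate 3).

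The 120 bases before the start of each copy are shown because the genes moved together and their upstream sequence is almost the same. Both lie on the - strand of GRCm38.p6, at chr17:34972157-34972276 for Hspa1a and chr17:34959239-34959358 for Hspa1b, and the capitals mark GAANNTTC, a core of the heat shock element.
Hspa1a: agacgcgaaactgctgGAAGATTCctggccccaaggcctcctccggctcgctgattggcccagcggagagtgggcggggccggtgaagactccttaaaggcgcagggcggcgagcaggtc
Hspa1b: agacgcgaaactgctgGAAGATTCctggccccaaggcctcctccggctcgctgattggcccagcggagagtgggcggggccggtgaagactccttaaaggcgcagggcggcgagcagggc
The copies are identical at 247 of 250 upstream bases (98.8%) and at 119 of the 120 printed. GAANNTTC, which reads the same on both strands, begins 104 bases before each start and occurs in the upstream 250 bases of 6.69% of RefSeq promoters.

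Genes of bile acid transport, drug metabolism and the absorptive surface were among those that fell. Slc51a, a subunit of the basolateral bile acid exporter, had 42.0, 12.2 and 148 CPM in untreated colon and 0.0698, 0.227 and 0.169 CPM after AOM-DSS (log2 change -8.74 ± 1.62 SE, adjusted p = 0.0122; -7.38 without untreated replicate 3). Slc10a2, the apical bile acid transporter, had 70.3, 31.9 and 199.8 CPM and 17.997, 4.01 and 8.39 CPM (log2 change -3.31 ± 0.96 SE, adjusted p = 0.0444; -2.29 without untreated replicate 3). These 2 were the called genes among 9 of bile acid transport and FXR response (0 rose, background 4.68% lower), and Slc51a was nearly lost in all 3 treated libraries.

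Of 30 xenobiotic metabolism genes 4 fell and 0 rose, 28 had a negative log2 change and the median was -0.82 (-0.56 without replicate 3). Cyp4b1, a cytochrome P450 that oxidises fatty acids and foreign compounds, went from 73.9, 20.1 and 193 CPM to 0.698, 0.209 and 0.564 CPM (log2 change -7.60 ± 1.40 SE, adjusted p = 0.0122; -6.53 without untreated replicate 3). Cyp2c65, another P450, went from 149, 57.7 and 449.9 CPM to 8.71, 16.6 and 7.65 CPM (log2 change -4.32 ± 1.07 SE, adjusted p = 0.0269; -3.18 without untreated replicate 3). Ugt2b5, a glucuronosyltransferase, went from 7.37, 1.32 and 31.1 CPM to 0.0175, 0.0698 and 0.0188 CPM (log2 change -8.45 ± 1.83 SE, adjusted p = 0.018; -6.80 without untreated replicate 3). Cyp2d26 fell as well (log2 change -2.58 ± 0.64 SE, adjusted p = 0.0269; -1.64 without untreated replicate 3). Untreated replicate 3 was the highest and replicate 2 the lowest untreated library for all 4, and no treated library reached the untreated range.

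The called genes of the differentiated colonocyte list, 4 of 15 with 0 risen (background 4.68% lower), were markers of absorptive cells. Fabp2, a fatty acid binding protein of enterocytes, had 485, 192 and 1489 CPM untreated and 5.74, 42.2 and 47.8 CPM after AOM-DSS (log2 change -4.50 ± 1.15 SE, adjusted p = 0.0293; -3.34 without untreated replicate 3). Alpi, the brush border alkaline phosphatase, had 46.6, 12.5 and 94.0 CPM and 0.314, 4.26 and 2.16 CPM (log2 change -4.51 ± 1.17 SE, adjusted p = 0.0303; -3.66 without untreated replicate 3). Prap1 (log2 change -5.20 ± 1.19 SE, adjusted p = 0.0203; -3.88 without untreated replicate 3) and Tmigd1 (log2 change -3.28 ± 0.97 SE, adjusted p = 0.0467; -2.17 without untreated replicate 3) fell with them. AOM-DSS replicate 1 was the lowest library for all 4. The median of the whole list was -0.51, and 0.03 without replicate 3, far from these 4 falls.

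Car1, the abundant cytosolic carbonic anhydrase of colonocytes, had 7154, 3189.8 and 24573 CPM untreated and 991, 859 and 1552 CPM after AOM-DSS (log2 change -3.36 ± 0.90 SE, adjusted p = 0.0339; -2.13 without untreated replicate 3). It was the only gene of 23 for colonocyte ion and water transport that fell, as Aqp4 was the only one that rose, and the list median was 0.34 (0.27 without replicate 3). Pdk4, a kinase that turns cells from glucose to fatty acid use, had 40.1, 14.2 and 83.4 CPM and 4.03, 0.802 and 1.17 CPM (log2 change -4.52 ± 1.19 SE, adjusted p = 0.0314; -3.72 without untreated replicate 3). It was 1 of 2 called among 20 genes for butyrate use, fatty acid oxidation and ketogenesis, whose median was -0.17 (0.13 without replicate 3). Abca12, a lipid transporter, went from 79.2, 21.5 and 194 CPM to 0, 0.419 and 0.282 CPM (log2 change -8.71 ± 1.58 SE, adjusted p = 0.0122; -7.69 without untreated replicate 3). Of 13 small intestine enterocyte markers Slc10a2, Alpi and Cyp3a11 fell, and Cyp3a11 had 54 counts in untreated colon and 0 in the 3 treated libraries, which allow at most 0.0175 CPM (3 counts over the group), so it was at least 17.01-fold lower.

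Markers of place along the gut moved with these falls. Of 8 genes of proximal hindgut position 4 fell and 0 rose (background 4.68% lower), with a median log2 change of -2.92 (-1.72 without replicate 3). The mean log2 CPM of the list was 3.28, 2.51 and 4.90 in untreated replicates 1 to 3 and 0.61, -0.13 and 0.56 after AOM-DSS, so every treated library lay below every untreated one. Osr2, a zinc finger developmental regulator, had 15.8, 8.47 and 61.2 CPM and 0.157, 0.0698 and 0.226 CPM (log2 change -7.55 ± 1.48 SE, adjusted p = 0.014; -6.27 without untreated replicate 3). Hoxb6, a homeobox gene of trunk position, had 15.3, 8.65 and 97.1 CPM and 0.960, 0.297 and 0.620 CPM (log2 change -6.01 ± 1.32 SE, adjusted p = 0.018; -4.21 without untreated replicate 3). Hoxb8 (log2 change -4.95 ± 1.20 SE, adjusted p = 0.0251; -3.14 without untreated replicate 3) and Hoxd8 (log2 change -2.60 ± 0.78 SE, adjusted p = 0.0492; -1.64 without untreated replicate 3) fell too.

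Of the 8 distal position genes tested, 1 fell and 0 rose. Their mean log2 CPM was 4.08, 4.42 and 0.81 in untreated replicates 1 to 3 and 3.98, 0.70 and 2.09 after AOM-DSS, so untreated replicate 3 and AOM-DSS replicate 2 were the lowest libraries. Hoxb13, the Hox gene of the distal colon, had 374, 399.7 and 0.635 CPM untreated and 368, 409 and 426 CPM after AOM-DSS, and was chosen after its values were seen: it was nearly missing in untreated replicate 3 alone. Hoxc10 was the called gene, at 0.132, 0.319 and 10.2 CPM untreated and 0 counts in the treated libraries, at least 203-fold lower and at least 12.9-fold lower without replicate 3. When the mean level of the proximal list, which holds Osr2 and the Hox genes above, was added to the model as a covariate, an alternative chosen after seeing the data, 1 gene rose and 5 fell, against 345 and 915, and of the 90 named genes Il5ra and Mnx1 kept their call. The proximal level separates the groups, so a difference in the stretch of colon sampled and the treatment cannot be told apart.

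**Figure D3:**
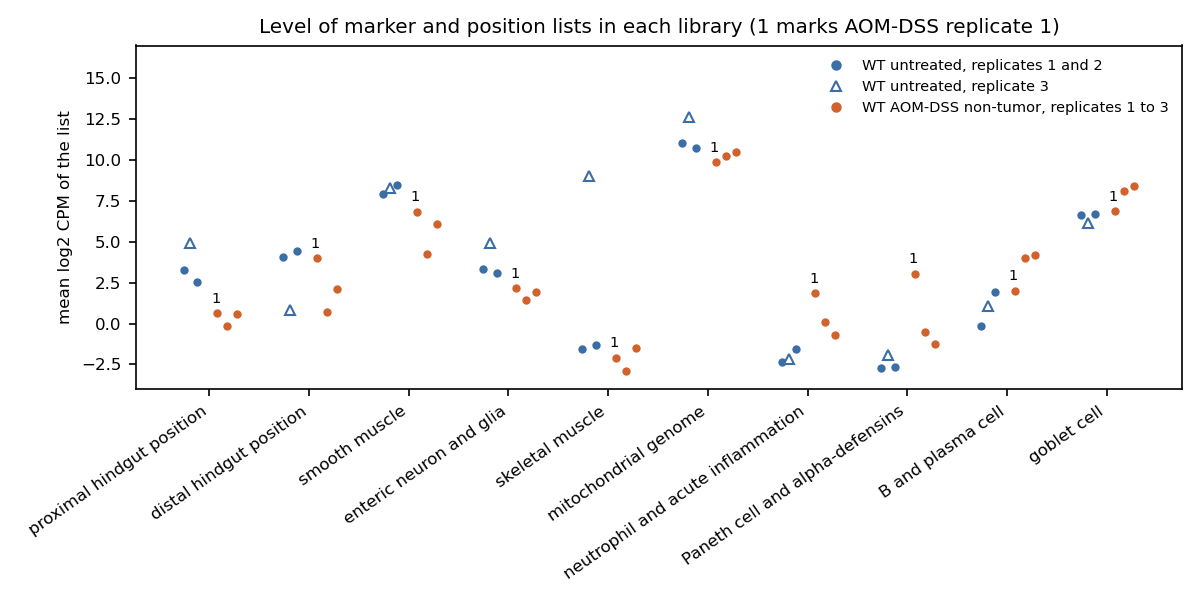
Mean log2 CPM of 10 marker and position lists in each library, blue for WT untreated (open triangle, replicate 3) and orange for WT AOM-DSS non-tumor in replicate order, with the label 1 at AOM-DSS replicate 1. The proximal position, smooth muscle and neuron lists are lower in every treated library, the skeletal muscle list is high in untreated replicate 3 alone (9.01), and the neutrophil and Paneth lists are highest in AOM-DSS replicate 1 (1.84 and 3.05).

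Smooth muscle genes were lower in every treated library, whether or not replicate 3 was counted. All 15 genes tested had a negative log2 change, 14 had groups that did not overlap (13.5% of all genes did so in this direction), and the median was -2.19 (-2.12 without replicate 3). Only 2 passed the test. Mylk, the kinase that starts smooth muscle contraction, had 596, 793 and 823 CPM and 182, 59.8 and 133 CPM (log2 change -2.56 ± 0.63 SE, adjusted p = 0.0258; -2.42 without untreated replicate 3). Smtn, smoothelin of contractile smooth muscle, had 138, 206 and 170.1 CPM and 80.2, 26.3 and 47.2 CPM (log2 change -1.74 ± 0.51 SE, adjusted p = 0.044; -1.70 without untreated replicate 3). The mean log2 CPM of the list was 7.90, 8.50 and 8.27 untreated and 6.83, 4.27 and 6.06 after AOM-DSS, with AOM-DSS replicate 2 the lowest. In bulk tissue, fewer cells of a type and less RNA in each of them cannot be told apart.

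Markers of the enteric nervous system were also lower in every treated library by their list mean, but their change leaned more on untreated replicate 3. Of 15 tested 7 fell and 0 rose, 14 had groups that did not overlap, and the median was -2.16 (-1.27 without replicate 3, the highest untreated library for every called member). Tubb3, a tubulin of neurons, had 19.1, 16.4 and 70.5 CPM and 6.93, 5.48 and 5.75 CPM (log2 change -2.54 ± 0.64 SE, adjusted p = 0.0278; -1.496 without untreated replicate 3). Stmn2, which regulates microtubules in growing neurites, had 23.0, 19.1 and 69.4 CPM and 8.06, 5.04 and 9.21 CPM (log2 change -2.32 ± 0.64 SE, adjusted p = 0.036; -1.44 without untreated replicate 3). Snap25, a SNARE protein of synaptic vesicle release (log2 change -2.16 ± 0.61 SE, adjusted p = 0.0401; -1.27 without untreated replicate 3), and the RNA-binding protein Elavl3 (log2 change -2.41 ± 0.63 SE, adjusted p = 0.0314; -1.48 without untreated replicate 3) fell as well. The glial genes Sox10 (log2 change -2.88 ± 0.80 SE, adjusted p = 0.0376; -2.16 without untreated replicate 3) and S100b (log2 change -3.26 ± 0.93 SE, adjusted p = 0.0415; -2.28 without untreated replicate 3) fell with the neuronal ones. S100b and Elavl3 are outside the rule for named genes and were chosen after their values were seen.

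Skeletal muscle genes, foreign to the colon wall, gave the largest falls, and untreated replicate 3 held nearly all of their signal. Of 15 tested 10 fell, with a median log2 change of -9.43 and 0.00 without that library. Tnnt3, a troponin of fast muscle fibres, had 0.747, 1.80 and 1854 CPM in untreated colon and 0.209, 0.0698 and 0.414 CPM after AOM-DSS (adjusted p = 0.0294, and 0.577 without replicate 3). Tnnc2, another troponin, had 0.439, 0.957 and 1073 CPM and 0.244, 0.0349 and 0.132 CPM (adjusted p = 0.0281, and 0.586 without replicate 3), and Myl1, a myosin light chain, had 0.805, 1.61 and 526 CPM and 0.541, 0.105 and 0.414 CPM (adjusted p = 0.0281, and 0.606 without replicate 3). Of the 12 largest falls by the rule, Trdn, Mybpc1, Casq1, Tnni2, Cmya5 and Sypl2 showed the same order, with replicate 3 far above the other untreated libraries and adjusted p of 0.111 to 0.812 without it.

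Of 9 adipocyte genes 2 fell, and the list median was -3.91 (-0.47 without replicate 3, or -3.76 and -0.25 with absent genes set to the limit of 3 counts). Car3, a carbonic anhydrase of fat and muscle, had 0.849, 0.694 and 568 CPM untreated and 0.751, 0.0872 and 0.545 CPM after AOM-DSS (adjusted p = 0.0341, and 0.874 without replicate 3), high in replicate 3 alone. Cidec, a lipid droplet protein, had 17.7, 6.37 and 38.3 CPM and 1.90, 4.62 and 3.29 CPM (log2 change -2.67 ± 0.78 SE, adjusted p = 0.046; -1.82 without untreated replicate 3). Thy1, a surface protein of fibroblasts and T cells and the only called gene of 11 for fibroblasts, had 15.3, 16.3 and 45.6 CPM and 10.3, 3.38 and 4.08 CPM (log2 change -2.12 ± 0.52 SE, adjusted p = 0.0253; -1.37 without untreated replicate 3). For Cidec and Thy1 the other untreated libraries also lay above every treated one.

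Transcripts of the mitochondrial genome were lower after AOM-DSS without overlap in 12 of 15 genes (background 13.5%). Of the 15, 9 fell (background 4.68% lower), and the median was -1.44 (-0.54 without replicate 3). Of 20 interferon response genes 4 fell and 0 rose (background 4.68% lower). Ifit1 had 29.0, 36.2 and 461 CPM untreated and 0.733, 6.11 and 13.4 CPM after AOM-DSS (log2 change -4.70 ± 1.21 SE, adjusted p = 0.0293; -2.20 without untreated replicate 3). Irf7, the factor that amplifies the response, had 176, 132 and 659.7 CPM and 12.6, 70.1 and 111 CPM (log2 change -2.32 ± 0.67 SE, adjusted p = 0.0434; -1.18 without untreated replicate 3). Isg15 (log2 change -3.47 ± 0.95 SE, adjusted p = 0.0363; -1.58 without untreated replicate 3) and Ifit3 (log2 change -3.57 ± 1.06 SE, adjusted p = 0.0466; -1.22 without untreated replicate 3) were the others, and the list median moved from -0.64 to -0.06 without replicate 3. In all 4 genes replicate 3 was several times the other untreated libraries.

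Single genes of further lists fell as well, each with replicate 3 as the highest untreated library. Of 15 enteroendocrine genes the hormones Sst, somatostatin (log2 change -3.97 ± 1.20 SE, adjusted p = 0.0498; -2.47 without untreated replicate 3), and Nts, neurotensin (log2 change -5.34 ± 1.18 SE, adjusted p = 0.018; -3.51 without untreated replicate 3), fell. Nts had 2.81, 2.16 and 20.8 CPM untreated and 0.297, 0.0872 and 0.244 CPM after AOM-DSS. Of 11 tuft cell genes, all with a negative log2 change, Dclk1 fell (log2 change -1.99 ± 0.57 SE, adjusted p = 0.0424; -1.02 without untreated replicate 3), and the list median was -1.62 (-0.76 without replicate 3). Ccn2, a matrix-associated target of YAP signalling (log2 change -1.97 ± 0.58 SE, adjusted p = 0.0465; -1.14 without untreated replicate 3), and Cat, catalase (log2 change -0.82 ± 0.23 SE, adjusted p = 0.0381; -0.36 without untreated replicate 3), fell too. Of 16 p53 target and alkylation repair genes Mdm2, the ligase that restrains p53 (log2 change -0.41 ± 0.12 SE, adjusted p = 0.0476; -0.30 without untreated replicate 3), and Sesn2 (log2 change -1.18 ± 0.32 SE, adjusted p = 0.0347; -0.54 without untreated replicate 3) fell, and the list median was -0.18 (-0.03 without replicate 3).

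**Figure D4:**
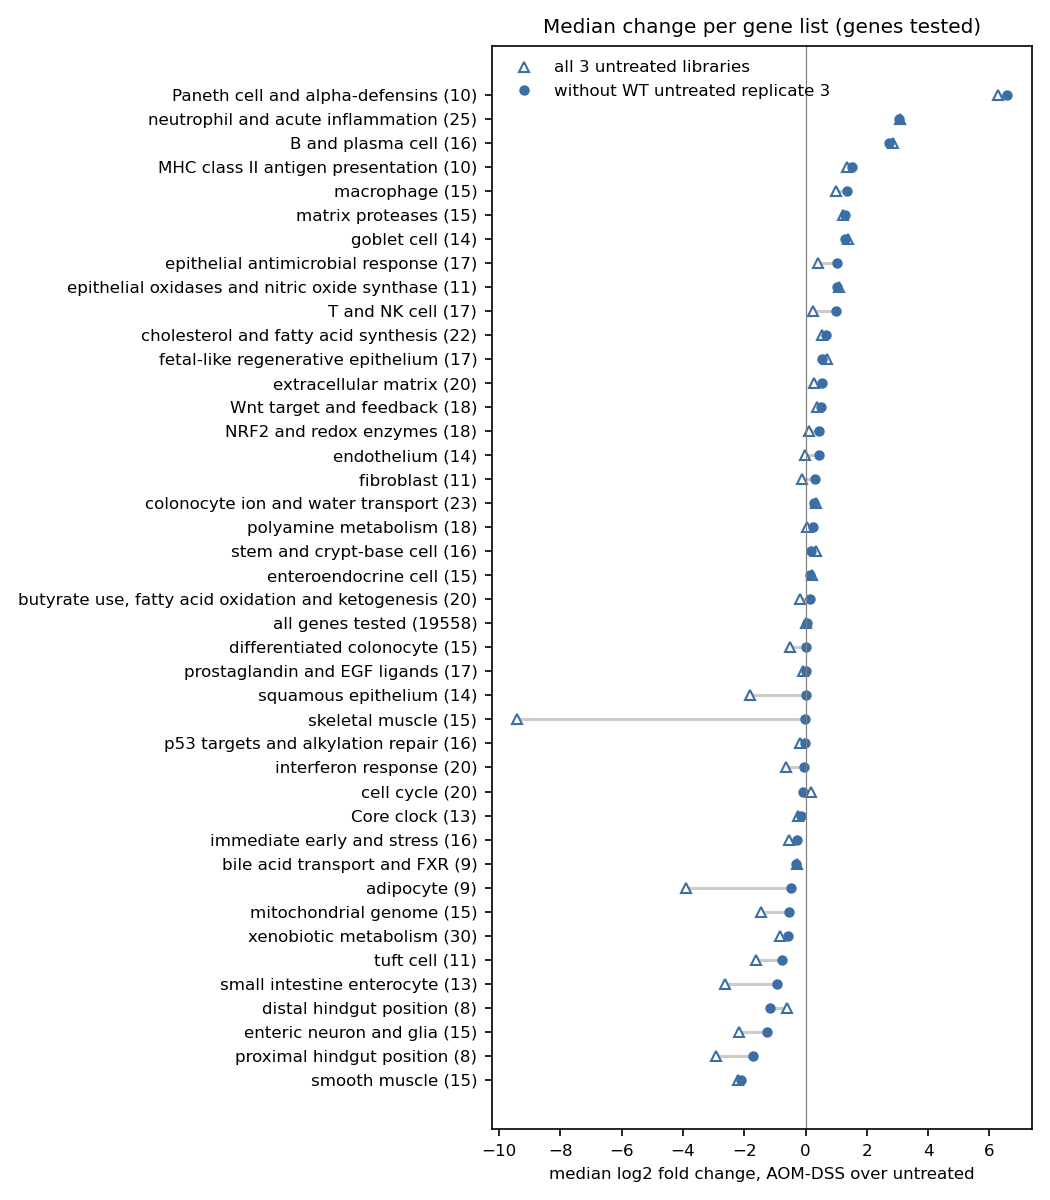
Median log2 change after AOM-DSS of each gene list with at least 8 genes tested, with all 3 untreated libraries (open triangles) and without WT untreated replicate 3 (dots), joined by a grey line, in the order of the dots; the number of genes tested stands in parentheses. The skeletal muscle list moves from -9.43 to 0.00 when that library is left out, while smooth muscle stays at -2.12 and neutrophil genes at 3.06.

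Genes of neutrophils and acute inflammation were higher after AOM-DSS at low levels of expression. Of 25 tested 5 rose and 0 fell, 14 lay above the untreated range without overlap (7.98% of all genes did so), and the median log2 change was 3.09 (3.06 without replicate 3), or 2.86 with genes absent from a whole group set to the limit of 3 counts. S100a8 and S100a9 form calprotectin, the main cytosolic protein of neutrophils. S100a8 had 0.0293, 0.0832 and 0.250 CPM untreated and 23.4, 3.54 and 1.32 CPM after AOM-DSS (log2 change 6.33 ± 1.91 SE, adjusted p = 0.0486; 7.35 without untreated replicate 3). S100a9 had 0.0732, 0.0693 and 0.115 CPM and 27.1, 3.75 and 1.82 CPM (log2 change 6.98 ± 1.99 SE, adjusted p = 0.0419; 7.24 without untreated replicate 3). AOM-DSS replicate 1 was far above the other treated libraries in both, although all 3 exceeded the untreated range.

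The cytokine gene Tnf had 0.381, 0.818 and 0.366 CPM untreated and 6.53, 2.67 and 1.62 CPM after AOM-DSS (log2 change 2.78 ± 0.73 SE, adjusted p = 0.0314; 2.62 without untreated replicate 3). Cxcl2, a chemokine that draws neutrophils, had 0.0732, 0.0971 and 0 CPM and 3.88, 0.994 and 0.902 CPM (log2 change 4.96 ± 1.44 SE, adjusted p = 0.044; 4.50 without untreated replicate 3). Mmp8, the neutrophil collagenase, had 0, 0.0416 and 0 CPM, which is 3 counts in all, and 3.11, 0.297 and 0 CPM (log2 change 6.05, adjusted p = 0.0453, and 5.64 without replicate 3), so 1 treated library lay within the untreated range. Chil3, a chitinase-like protein of macrophages and neutrophils, had 0, 0.0555 and 0 CPM and 15.5, 0.820 and 0.113 CPM (log2 change 7.94, adjusted p = 0.0319, and 7.52 without replicate 3), and Ly6c2, a monocyte antigen and the only called gene of 15 for macrophages, had 0.0586, 0.222 and 0.0385 CPM and 1.17, 0.855 and 2.43 CPM (log2 change 3.74, adjusted p = 0.0497, and 3.44 without replicate 3). The mean log2 CPM of the neutrophil list was 1.84, 0.12 and -0.72 in AOM-DSS replicates 1 to 3 against -2.35 to -1.53 untreated. Without AOM-DSS replicate 1 these calls were lost, with adjusted p of 0.0878 for Tnf, 0.096 for Cxcl2, 0.104 for S100a9, 0.135 for S100a8, 0.137 for Chil3 and 0.246 for Mmp8; log2 changes there were 4.36 for S100a8, 5.01 for S100a9 and 4.38 for Chil3.

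Genes of B cells and antigen presentation had higher values after AOM-DSS, with no call. All 16 B and plasma cell genes had a positive log2 change, 7 of them without overlap (background 7.98%). Their median was 2.84 (2.73 without replicate 3), with 0 called by edgeR (10 with an unadjusted p under 0.05 and 6 called by DESeq2). Igha, the constant region of the secreted IgA of the gut, had 12.7, 94.1 and 104 CPM untreated and 382, 366 and 576 CPM after AOM-DSS (log2 change 2.65, adjusted p = 0.0986, and 3.11 without replicate 3). Sdc1, the plasma cell and epithelial proteoglycan CD138, had 194, 151 and 192 CPM and 243, 269 and 261 CPM (log2 change 0.52, adjusted p = 0.0761, and 0.63 without replicate 3). The treated libraries lay above the untreated ones in both genes. All 10 genes of MHC class II antigen presentation had a positive log2 change too, with a median of 1.34 (1.5005 without replicate 3) and 0 called by edgeR (2 with an unadjusted p under 0.05 and 0 called by DESeq2). In WT mice given spermidine their median was -1.55. There the list had a mean log2 CPM of 2.31, 5.41 and 1.94 in the group without AOM-DSS and 2.85, 4.34 and 2.41 in the group with it. WT spermidine replicate 2 alone lay above the treated libraries. The T and NK cell list had a median of 0.25 (1.005 without replicate 3) and 0 of 17 called by edgeR (0 with an unadjusted p under 0.05 and 0 called by DESeq2).

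Goblet cells make the mucus layer of the colon. All 14 goblet cell genes had a positive log2 change, 2 rose, and the median was 1.39 (1.29 without replicate 3). Spink4, a small secreted protein of goblet cells, had 115, 85.5 and 184 CPM untreated and 229, 435 and 424 CPM after AOM-DSS (log2 change 1.504 ± 0.38 SE, adjusted p = 0.0293; 1.92 without untreated replicate 3). Fxyd3, a regulator of the sodium pump, had 22.4, 17.02 and 17.7 CPM and 44.9, 65.5 and 50.2 CPM (log2 change 1.49 ± 0.30 SE, adjusted p = 0.0145; 1.496 without untreated replicate 3). AOM-DSS replicate 1 was the lowest treated library for both, and the groups did not overlap.

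Paneth cells, the antimicrobial secretory cells of the small intestine, are normally rare in mouse colon, and their markers stood near 0 in untreated colon. All 10 tested had a positive log2 change, and 2 rose. The median was 6.29 (6.59 without replicate 3), or 5.54 and 4.56 with absent genes set to the limit of 3 counts. Pla2g2a, named for a secreted antibacterial phospholipase but annotated as a polymorphic pseudogene, had 0.205, 0.624 and 0.269 CPM and 46.8, 34.8 and 11.8 CPM (log2 change 6.38 ± 1.17 SE, adjusted p = 0.0122, and 6.26 without untreated replicate 3). It was also the only called gene of 17 for the epithelial antimicrobial response. Whether these mice make a working enzyme from its RNA was not tested. Mmp7, the protease matrilysin that activates alpha-defensins and the only called gene of 15 matrix proteases, had 0.0293, 0.0416 and 0.462 CPM and 79.2, 2.65 and 1.11 CPM (log2 change 7.41 ± 2.11 SE, adjusted p = 0.0415; 9.54 without untreated replicate 3). The mean log2 CPM of the list was 3.05 in AOM-DSS replicate 1 and -0.49 and -1.27 in replicates 2 and 3, against -2.73 to -1.94 untreated. Without AOM-DSS replicate 1, Pla2g2a kept its call (adjusted p = 0.0166) and Mmp7 lost it (0.242), with log2 changes of 5.94 and 3.52. Genes with near-identical copies, such as the alpha-defensins, Khdc1a, the Ly6, Ifit, Cyp2c and Ugt2b genes, are uncertain one by one.

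Ly6a, an antigen of regenerating, fetal-like colon epithelium, had 79.6, 179.7 and 50.4 CPM untreated and 442, 601 and 383 CPM after AOM-DSS (log2 change 2.20 ± 0.56 SE, adjusted p = 0.0293; 1.93 without untreated replicate 3). It was the 1 of 17 genes of that list that rose, and the list median was 0.70 (0.55 without replicate 3). Stem cell, Wnt target, cell cycle and extracellular matrix lists had 0 called of 16, 18, 20 and 20 genes, with medians of 0.34, 0.36, 0.19 and 0.27, and of 0.17, 0.49, -0.07 and 0.55 without replicate 3. These are calls by edgeR; the numbers with an unadjusted p under 0.05 were 0, 4, 0 and 2, and DESeq2 called 0, 2, 0 and 2. Their levels differed among the treated libraries: Wnt targets had a mean log2 CPM of 4.19, 1.44 and 1.66 in AOM-DSS replicates 1 to 3 and 2.21 to 2.44 untreated. Endothelium, core clock, prostaglandin and EGF ligands, squamous epithelium, red cell and pancreas lists also had 0 called by edgeR, with 1, 1, 3, 2, 0 and 0 genes at an unadjusted p under 0.05 and 1, 0, 1, 1, 0 and 0 called by DESeq2.

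Enzymes that make reactive oxygen and nitric oxide in the epithelium had higher values with no call. All 11 had a positive log2 change, 8 of them without overlap (background 7.98%). By edgeR 7 had an unadjusted p under 0.05 and 0 were called, against 4 called by DESeq2, and the median was 1.08 (1.03 without replicate 3). Duox2, a dual oxidase that releases hydrogen peroxide, had 85.6, 196 and 58.4 CPM and 116, 286 and 422 CPM (log2 change 1.28, adjusted p = 0.0874, and 1.03 without replicate 3), and Noxo1, the organiser of the colon oxidase NOX1, had 86.1, 91.1 and 34.3 CPM and 103, 163 and 117 CPM (log2 change 0.86, adjusted p = 0.0591, and 0.58 without replicate 3). Only the Noxo1 groups of the pair did not overlap. The NRF2 and redox list had 1 called of 18, the fall of Cat, and a median of 0.12 (0.45 without replicate 3).

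Smox, an oxidase that converts spermine to spermidine with hydrogen peroxide as a by-product, is the gene deleted elsewhere in the series. In WT colon (ENSMUSG00000027333.18, GRCm38 chr2:131491496-131525922) it had 26.7, 25.1 and 27.6 CPM untreated and 48.2, 50.7 and 41.8 CPM after AOM-DSS, 1.77-fold higher (log2 change 0.83 ± 0.24 SE, adjusted p = 0.0446). The groups were tight and did not overlap, and without replicate 3 the log2 change was 0.91 with an adjusted p of 0.147. It was the only gene of 18 for polyamine metabolism that was called, and the list median was 0.05 (0.25 without replicate 3). In WT mice given spermidine, Smox had 48.8, 49.4 and 43.7 CPM in the group without AOM-DSS and 54.1, 47.5 and 46.6 CPM in the group with it. The log2 change was 0.06 ± 0.24 SE (adjusted p = 0.908), and both of those groups lay close to the level seen after AOM-DSS alone. The test of the difference between these effects gave an unadjusted p of 0.0339 and an adjusted p of 0.971 for Smox.

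A second pair of WT groups received 14 mM spermidine in drinking water for the 56 days, with or without AOM-DSS, and shares no library with the first. There 85 genes rose and 289 fell (1.91% of 19558 called, 0.435% higher and 1.48% lower). Of the 1260 genes called without spermidine 191 were also called there (15.2% of these and 51.1% of those called there), 35 risen and 156 fallen, all in the same direction. In the 1260 as a whole, 96.0% had the same sign of change, a share that was not set against that of all genes tested. That comparison had 0 calls when any 1 of its 3 AOM-DSS libraries was left out, with 2457 to 3136 genes at an unadjusted p under 0.05 in those edgeR fits. WT untreated replicate 3 was the highest library of its group for 157 of the 191 shared genes and the lowest for 28.

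The shared rises included Khdc1a (log2 change 5.42 ± 1.18 SE, adjusted p = 0.0225 with spermidine), Il5ra (4.26 ± 1.09 SE, adjusted p = 0.0434), Aqp4 (3.12 ± 0.68 SE, adjusted p = 0.0225) and Agps (0.80 ± 0.21 SE, adjusted p = 0.0461). Il5ra had 0.0365, 0.246 and 0.0770 CPM in WT spermidine and 3.15, 3.83 and 0.0317 CPM in WT AOM-DSS spermidine libraries, so 1 treated library lay below all untreated ones and the other 2 carried the rise. The shared rises also held Fdps (0.88 ± 0.23 SE, adjusted p = 0.0432), Fasn (0.92 ± 0.20 SE, adjusted p = 0.0234), Acaca (0.96 ± 0.18 SE, adjusted p = 0.0125), Mvk, Mvd and Acat2, and 4 of the 22 lipid synthesis genes rose there. The shared falls included Slc51a (-9.63 ± 1.70 SE, adjusted p = 0.0125), Cyp4b1 (-7.68 ± 1.41 SE, adjusted p = 0.0125), Car1 (-4.83 ± 0.97 SE, adjusted p = 0.0165), Hspa1a (-3.55 ± 0.80 SE, adjusted p = 0.0256), Pcdh17 (-4.11 ± 0.66 SE, adjusted p = 0.0112) and Bend7 (-2.37 ± 0.48 SE, adjusted p = 0.0168). The proximal position list differed between those groups as well, with a mean log2 CPM of 3.59 to 4.28 in WT spermidine and -0.02 to 0.39 in WT AOM-DSS spermidine libraries, and 3 of its 8 genes fell. When the proximal level was a covariate, 1 gene was called in that comparison.

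Plcd3, Mnx1, Tnf, Ppp1r1a, Slc4a4, Otor and Add3 were not called with spermidine. Among the genes called without WT untreated replicate 3, only Pcdh17, Bend7 and Agps were called there. Log2 changes with spermidine were -1.95 for Ppp1r1a (adjusted p = 0.0616), -1.08 for Slc4a4 (0.193), -0.89 for Otor (0.523) and -0.29 for Add3 (0.541). Plcd3 had 14.5, 11.5 and 8.49 CPM in WT spermidine, above its WT untreated libraries. Plcd3 had a log2 change of 0.28 ± 0.32 SE, adjusted p = 0.642, Mnx1 -0.43 ± 0.50 SE, adjusted p = 0.658 and Tnf 0.21 ± 0.68 SE, adjusted p = 0.887. The median of the neutrophil list was 0.88 there against 3.09 without spermidine, and that of the Paneth list 1.71 against 6.29. With absent genes set to the limit of 3 counts, the values without spermidine were 2.86 and 5.54. Both lists were highest in WT AOM-DSS non-tumor replicate 1 (mean log2 CPM 1.84 and 3.05), and the differences between these medians were not tested. The difference between the AOM-DSS effects was tested as an interaction, and edgeR called 0 genes, with 956 at an unadjusted p under 0.05 and a lowest adjusted p of 0.314. DESeq2 called 31. For Plcd3 the unadjusted p of the difference was 0.000254 and its adjusted p 0.917.

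**Figure D5:**
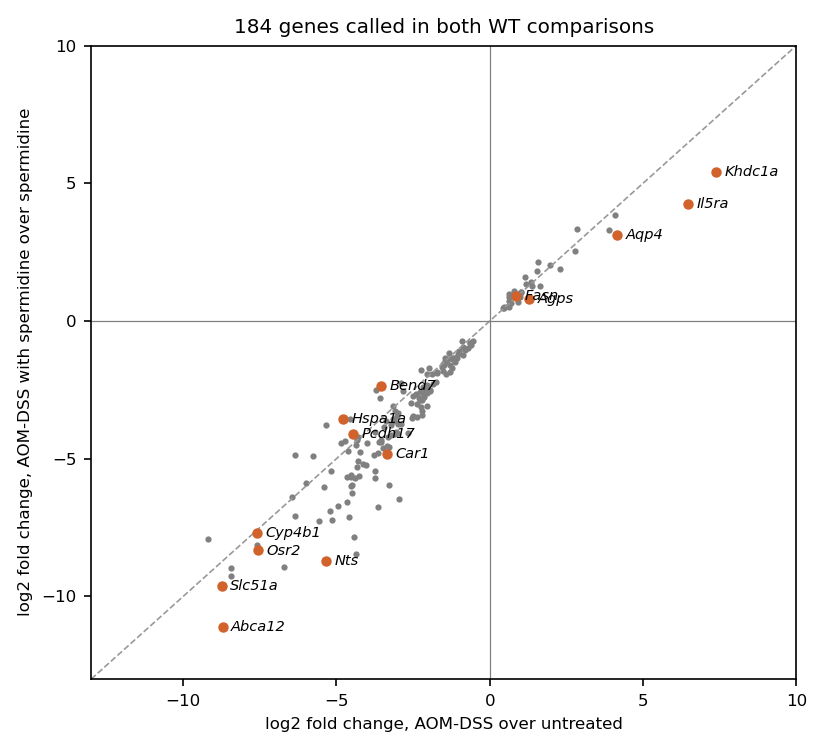
Log2 change after AOM-DSS without spermidine (x axis) against that with spermidine (y axis) for 184 of the 191 genes called in both WT comparisons, leaving out 7 with no count in a whole group; the dashed line marks equal changes. Each point lies where both changes have the same sign, from Slc51a and Abca12 among the falls to Khdc1a and Il5ra among the rises, and orange points carry names.

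In Smox mice the same treatment gave 1 rise and 14 falls (0.0767% called, 0.00511% higher and 0.0716% lower) in non-tumor colon. The difference between the WT and Smox effects had 0 calls with edgeR, 3088 genes at an unadjusted p under 0.05 and a lowest adjusted p of 0.0523. By DESeq2, the log2 change after AOM-DSS was higher in WT than in Smox for 207 genes and lower for 1036. Leaving out single libraries gave between 0 and 460 calls, with 460 without Smox AOM-DSS non-tumor replicate 3, 415 without WT untreated replicate 2 and 203 without WT untreated replicate 1. The nervous system genes had a median log2 change of 1.54 in Smox against -2.16 in WT (-1.27 without WT untreated replicate 3). Smooth muscle genes had 0.08 against -2.19 (-2.12 without it). The untreated groups differed in level. Nervous system genes had a mean log2 CPM of 0.55 to 1.99 in Smox untreated and 3.07 to 4.92 in WT untreated libraries. For smooth muscle genes these were 5.82 to 7.32 and 7.90 to 8.50. The differences between these medians were not tested. Proximal position genes had a median log2 change of -3.27 in Smox against -2.92 in WT (-1.72 without WT untreated replicate 3). Srebf2 had a log2 change of -0.21 in Smox, and the difference from WT had an adjusted p of 0.0524 by edgeR. WT untreated replicate 3 was the lowest WT untreated library for Srebf2, and without it the lowest adjusted p of any gene was 0.202.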

How the data were processed

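Colon RNA was extracted with an RNeasy Mini kit and made into strand-specific libraries with a NEBNext Ultra II kit, per the labels' protocols. The deposited table holds estimated counts per gene, written by the authors as whole numbers for 31023 genes in 30 libraries, and the submitters' processing notes name fastp, Salmon, DESeq2 and GRCm38 without versions. There were 0 columns of other samples. Genes were kept with edgeR 4.0.16's filterByExpr (minimum count 10, minimum total 15), which left 19558 and removed 11465 that held a median of 0.0165% of counts. Counts were scaled by TMM and fitted with a robust quasi-likelihood model in R 4.3.3, with 1 mean for each of 10 groups (20 residual degrees of freedom), with Benjamini-Hochberg adjustment across the whole table and a threshold of 0.05. CPM, log2 changes and list means come from that fit or its scaling. The test was checked on simulated counts drawn from 1 mean per group. Those counts held no library that stands apart and no difference in position within the comparison, so the check does not cover either.

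Named genes were Smox, up to 12 called genes each way with the largest change, where the higher group averaged 2 CPM or more, the lower one summed to 3 counts or more and the groups did not overlap, up to 10 each way on the same terms called with and without WT untreated replicate 3, and per list up to 5 called members or the 2 most abundant; predicted genes, pseudogenes and immunoglobulin, mitochondrial and Y genes were left out of the rankings. The members and lists were chosen with earlier results of these data known, and genes outside the rule are named as such. Some genes of the rule and the lists are not reported here by name, and the counts and medians of lists include them. Alternatives were DESeq2 1.42.0, other scaling and filters, only the groups compared, left-out libraries, a table without mitochondrial and skeletal muscle genes, and covariates for the level of distal or proximal position genes. Promoters came from RefSeq and gene positions from GENCODE release M21. Figures were drawn with matplotlib 3.10.9.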

Additional observations from a re-analysis of the deposited data

How the results depend on the processing

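No paired analysis was possible because the replicate numbers only follow the order of the samples and the labels pair no libraries. For AOM-DSS in WT non-tumor colon the 1260 calls became 2760 with DESeq2, 578 with no filter on low counts, 0 in a fit of only the 6 libraries, 57 without both libraries that stand apart, 2527 with the level of distal position genes as a covariate and 6 with that of proximal position genes, and leaving out 1 library gave 9 to 1941. The 374 calls with spermidine became 1195 with DESeq2, 2436 in a fit of only those libraries, 1423 without both libraries that stand apart, 704 with the distal covariate and 1 with the proximal one, and 0 to 360 with 1 library left out. The difference between WT and Smox, with 0 calls, had 1243 with DESeq2, 1 with RLE scaling, 75 with at least 1 CPM in 3 libraries, 1 without both libraries that stand apart and 256 with the proximal covariate, and 0 to 460 with 1 library left out. The difference between WT mice without and with spermidine, with 0 calls, had 31 with DESeq2 and 0 in the other fits run. The cause of these changes was not tested.

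Of the 90 genes named as risen or fallen, 89 of 89 with a value kept their call with DESeq2, 89 with RLE scaling, 83 with the distal covariate, 20 without both libraries that stand apart, 0 of 86 in the fit of only the 6 libraries and 2 with the proximal covariate. The sign of the log2 change turned only with the proximal covariate, where the values were 6.13 for Tnnc2, 5.73 for Tnnt3, 2.21 for Trdn, 1.04 for Myl1, 0.84 for Car3, 0.28 for Slc10a2, 0.26 for Hoxb8, 0.24 for Hoxd8, 0.20 for Cidec, 0.12 for Tmigd1, 0.073 for Cyp2c65, 0.053 for Tnni2 and -1.83 for Hoxb13, which was not called in any of these. The range of the adjusted p among the genes that lost their call without WT untreated replicate 3 was 0.0545 to 0.874. Depth limits the genes near 0 in a group, such as Chil3, Mmp8 and Otor, whose fitted changes rest on few counts.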
